A study of Mus musculus with 6 samples.

Results

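The genes described here encode the mitochondrial respiratory chain and the ATP synthase, and they were chosen by symbol alone. All genes with a single symbol in the array's gene table that starts with Nduf (complex I), Sdh (complex II), Uqcr (complex III), Cox4, Cox5, Cox6, Cox7 or Cox8 (complex IV) or Atp5 (ATP synthase, or complex V) were taken, which gave 94 of 18193 genes, 44 in complex I, 8 in complex II, 8 in complex III, 17 in complex IV and 17 in the ATP synthase. The prefixes also bring in assembly factors, and they miss subunits named otherwise, such as Cyc1, as well as the subunits encoded in mitochondrial DNA. Expression was measured in cells purified by flow cytometry from mouse lung, with 3 arrays per population and 1 Affymetrix whole-genome 3' expression array per sample. The E18 samples were Muc1+/Pdpn+ cells of lungs taken on embryonic day 18, named bipotent progenitors in the series title, fetal cells that give rise to both alveolar epithelial cell types. The adult samples were Lyz2+/EpCAM+ cells of adult lungs, named ATII in the series title, that is, alveolar type II cells, which make and secrete surfactant. Age and sorted population differed together, and the age of the adults, the strain, and whether animals were pooled for a sample were not given in the sources used here. The labels call each sample a biological replicate without naming animals, so p-values measure the spread between these samples, which may in part be technical.

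The respiratory chain passes electrons from NADH (through complex I) or succinate (through complex II) to coenzyme Q, then through complex III, cytochrome c and complex IV to oxygen. Complexes I, III and IV pump protons out of the mitochondrial matrix, and the ATP synthase lets them return through its membrane part while its head makes ATP. Type II cells are rich in mitochondria, and surfactant lipid synthesis and secretion use ATP. Most of the subunits are encoded in the nucleus, and many of their promoters are known to bind NRF1 or, through an ETS motif, NRF2 (GABP).

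Promoters of 4 genes are printed because they hold matches to the motifs of those factors, and they belong to genes on both sides of the comparison, Atp5k, Cox6a1 and Atp5h with higher and Sdhd with lower mean signal in the adult arrays. Each sequence is the RefSeq window of 250 bases before the annotated transcript start (GRCm38.p6), written in the direction of the gene, with motif matches in capitals. The motifs searched on both strands were GCGC, then any base, then TGCGC for NRF1, and CCGGAAG for ETS factors, which reads CTTCCGG on the other strand, and no printed matches overlap.
Atp5k (chr5:108434400-108434649, minus strand), 1 NRF1 match: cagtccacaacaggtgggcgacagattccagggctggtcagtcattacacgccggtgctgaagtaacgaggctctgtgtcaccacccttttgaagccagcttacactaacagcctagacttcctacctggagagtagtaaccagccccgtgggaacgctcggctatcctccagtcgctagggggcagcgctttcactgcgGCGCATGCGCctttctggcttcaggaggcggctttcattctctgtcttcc
Cox6a1 (chr5:115348959-115349208, minus strand), 2 NRF1 matches and 1 ETS match: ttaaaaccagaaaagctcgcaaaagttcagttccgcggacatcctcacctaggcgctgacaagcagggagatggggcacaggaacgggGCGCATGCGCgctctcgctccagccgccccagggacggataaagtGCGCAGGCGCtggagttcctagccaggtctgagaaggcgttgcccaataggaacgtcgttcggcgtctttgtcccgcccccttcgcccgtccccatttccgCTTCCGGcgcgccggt
Sdhd (chr9:50603850-50604099, minus strand), 1 NRF1 match and 1 ETS match: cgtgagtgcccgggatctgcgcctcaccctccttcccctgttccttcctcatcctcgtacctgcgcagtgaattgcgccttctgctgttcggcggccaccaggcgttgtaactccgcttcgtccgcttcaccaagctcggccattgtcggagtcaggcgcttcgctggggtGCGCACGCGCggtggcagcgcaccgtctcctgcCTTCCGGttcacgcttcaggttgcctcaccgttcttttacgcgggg
Atp5h (chr11:115419920-115420169, minus strand), 1 NRF1 match and 1 ETS match: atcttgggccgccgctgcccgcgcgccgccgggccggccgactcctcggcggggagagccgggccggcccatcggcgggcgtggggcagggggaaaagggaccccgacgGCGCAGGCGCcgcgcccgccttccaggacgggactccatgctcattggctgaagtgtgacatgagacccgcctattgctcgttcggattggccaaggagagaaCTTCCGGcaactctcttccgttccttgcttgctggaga
Windows were found for 78 of the 94 genes, 83 windows in all because some genes have several starts. An NRF1 match was present in 13 of the 83 windows (15.7%), where 3.74% of the 32851 windows of all genes hold one. An ETS match was present in 16 windows (19.3%, against 6.91% of all windows), and both were present in 3 windows, those of Atp5h, Cox6a1 and Sdhd (3.61%, against 0.557%). These shares are descriptions of short letter matches, and binding was not measured.

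The deposited signals had been scaled by the authors to a common trimmed mean, and they were analysed as log2 signal. Levels below are log2 signals, and differences are adult minus E18 on that scale, so that positive values are higher in the adult arrays. Testing was limited to the 13335 genes whose signal was at or above the 40th percentile of the array, taken as the floor of detection, on 3 or more of the 6 arrays. Median signals per array ran from 87.2 to 112 in E18 and from 70.2 to 110 in adult. Adult replicate 1 stood apart in RNA quality, with a ratio of 3' to 5' signal of 24.6 for Gapdh and 11.7 for Actb, where the other 5 arrays had 4.70 to 6.18 and 1.35 to 1.55. The third replicates of both groups carried higher poly-A spike signals (14.4 and 14.8, against 8.96 to 11.6). Of the sort genes, Lyz2 was lower in the adult arrays that were sorted for it (-2.86, limma adjusted p = 0.00303), Pdpn was lower in them (-2.27, adjusted p = 0.00924), and Muc1 (-2.07, adjusted p = 0.206) and Epcam (-1.41, adjusted p = 0.359) did not pass. The labels do not say whether the sort detected Lyz2 as protein or through a reporter. In adult replicates 1, 2 and 3 Epcam stood at 7.85, 8.50 and 10.68, and the summed signal of 10 epithelial genes was 3895, 5781 and 63326, against 27554 to 34402 in E18. Leukocyte genes summed to 206832, 142807 and 63017 in adult replicates 1, 2 and 3 and to between 38407 and 55414 in E18. Of 15 tested, limma called 3 higher, where it called 1.41% of all genes higher, and 0 were under the floor on all arrays. All 10 mesenchymal genes were called lower in the adult arrays, against 4.57% of all genes (sums of 1986 to 9414, against 42781 to 59911). Ciliated and club cell genes summed to 20692, 20260 and 98964.5 in adult replicates 1, 2 and 3 and to between 24881 and 32275 in E18. Type II cell genes summed to 54353, 65211 and 92249 in adult and to between 45139 and 74495 in E18. Limma called 0 of 11 tested type II cell genes, against 5.98% of all genes. The part of these differences in cell makeup and RNA quality in the results below was not tested, and in bulk samples fewer cells of a type and less RNA per cell cannot be told apart.

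Most genes of the respiratory chain had slightly higher mean signal in the adult arrays, while the typical gene on the array had lower signal there, and no single member passed the test. Of the 94 genes, 91 were tested, and Cox7b2, Cox8b and Ndufb4 were too dim. The median difference of the 91 was 0.26, with 62 positive and 29 negative differences, and the median of all genes tested was -0.17. At an adjusted p under 0.05 limma called 0 of the 91, where it called 5.98% of all genes (1.41% higher and 4.57% lower). The lowest adjusted p among them was 0.064, for Atp5j2. At an unadjusted p under 0.05 there were 17 higher and 5 lower members, where 6.49% of all genes were higher and 15.1% lower.

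Groups that do not overlap were counted as a description of the arrays. Every adult array lay above every E18 array in 30 of the 91 genes (33.0%), a pattern found in 10.1% of all genes tested. Every adult array lay below every E18 array in 3 of them, Cox6b2, Ndufa4l2 and Ndufa9 (3.30%, against 18.8% of all genes). The 30 comprised 13 genes of complex I (Ndufa1, Ndufa2, Ndufa6, Ndufa7, Ndufa12, Ndufa13, Ndufaf8, Ndufb2, Ndufb5, Ndufb10, Ndufb11, Ndufs7 and Ndufs8), Sdhaf4 of complex II, 4 genes of complex III (Uqcr10, Uqcr11, Uqcrb and Uqcrh), 7 of complex IV (Cox4i1, Cox5a, Cox6a1, Cox6a2, Cox6c, Cox7a2 and Cox8a) and 5 of the ATP synthase (Atp5e, Atp5j2, Atp5k, Atp5l and Atp5md). With arrays centred on their medians the counts were 17 above (18.7%, against 11.1% of all genes) and 2 below (2.20%, against 13.0%). After quantile normalization they were 25 above (27.5%, against 12.1%) and 8 below (8.79%, against 15.7%).

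**Figure D1:**
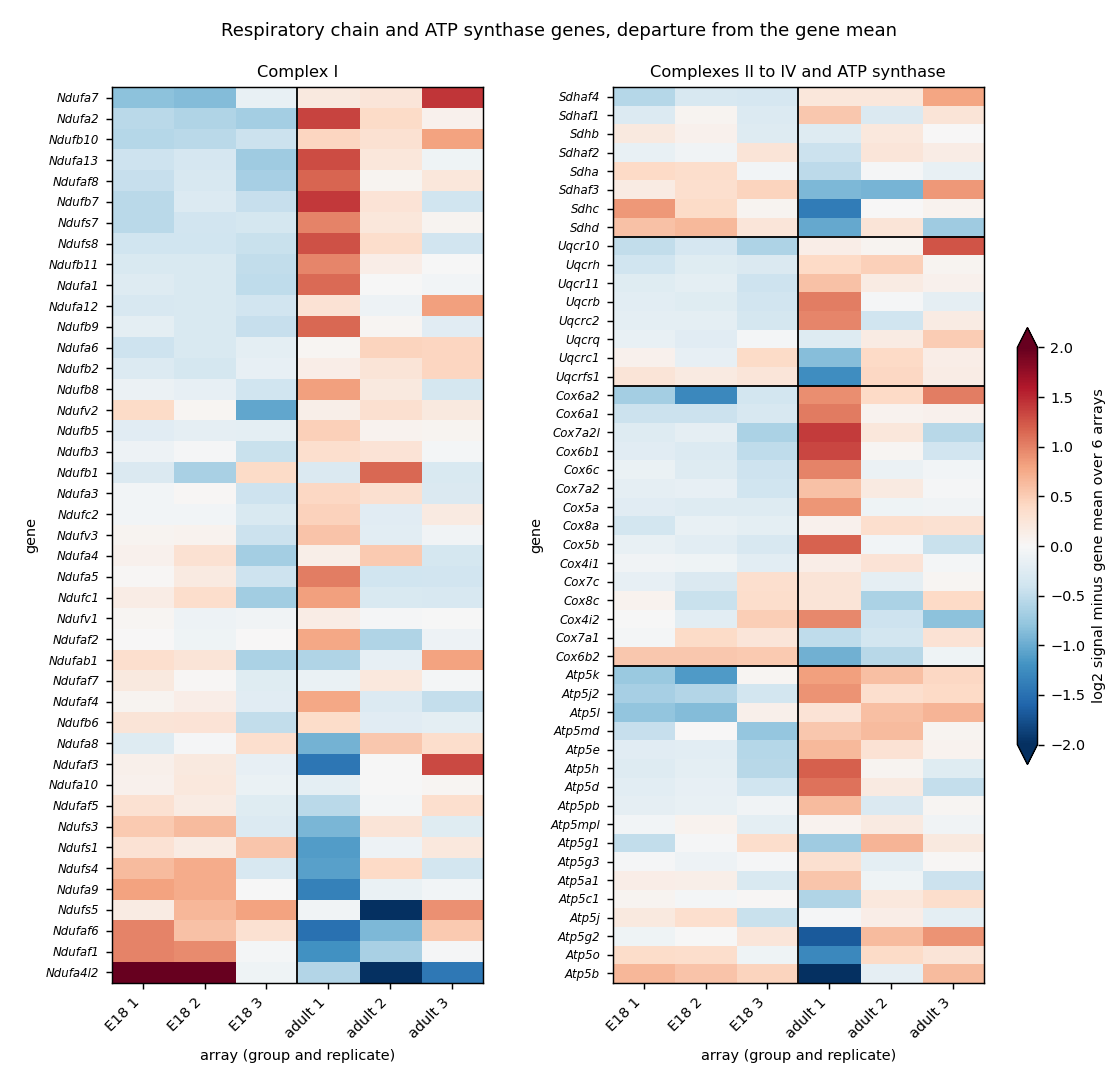
Log2 signal of the 91 tested genes on each of the 6 arrays (columns), as the departure from the gene's mean over all arrays, with genes (rows) ordered by difference within each complex. The column of adult replicate 1 carries strong red for many genes and strong blue for others, and that array was the highest array for 41 genes and the lowest for 25.

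The size of the shift depended on the scaling and on the adult arrays included. The median of all genes moved from -0.17 to -0.05 after quantile normalization and to -0.02 with centred arrays, and relative to it the median of the respiratory chain genes was higher by 0.43 on the deposited scale, 0.15 after quantile normalization and 0.43 with centring. Adult replicate 1, the array with the high 3' to 5' ratios, was the highest of the 6 arrays for 41 of the 91 genes (45.1%, against 19.1% of all genes) and the lowest for 25 (27.5%, against 31.2%). Without it the median was 0.17 against -0.10 for all genes, every adult array lay above every E18 array in 34 genes (37.4%, against 14.5% of all genes) and below in 6 (6.59%, against 22.7%), and limma called 0 of them, where it called 4.29% of all genes. Relative to all genes the median was higher by 0.27 without adult replicate 1 and by 0.61 without adult replicate 3, against 0.43 with all arrays. Without adult replicate 3 limma called 4 members higher (Atp5j2, Cox6a2, Ndufa2 and Ndufs8) and 5 lower (Cox6b2, Ndufa4l2, Ndufaf1, Ndufaf6 and Sdhaf3), in a fit that called 20.8% of all genes. As departures from each gene's own mean, the E18 arrays had medians of -0.12, -0.10 and -0.26 in the order of their replicate numbers, and the adult arrays 0.27, 0.13 and 0.04. The adult arrays also varied more among themselves, with a median within-group SD of 0.56 for these genes against 0.19 among the E18 arrays (0.62 and 0.29 over all genes tested). Over all genes tested, E18 replicates 1 and 2 correlated at 0.98 with each other and at 0.93 and 0.92 with E18 replicate 3. Adult replicates 1 and 2 correlated at 0.91 with each other and at 0.78 and 0.83 with adult replicate 3. With E18 replicate 3 those 2 adult arrays correlated at 0.82 and 0.84.

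**Figure D2:**
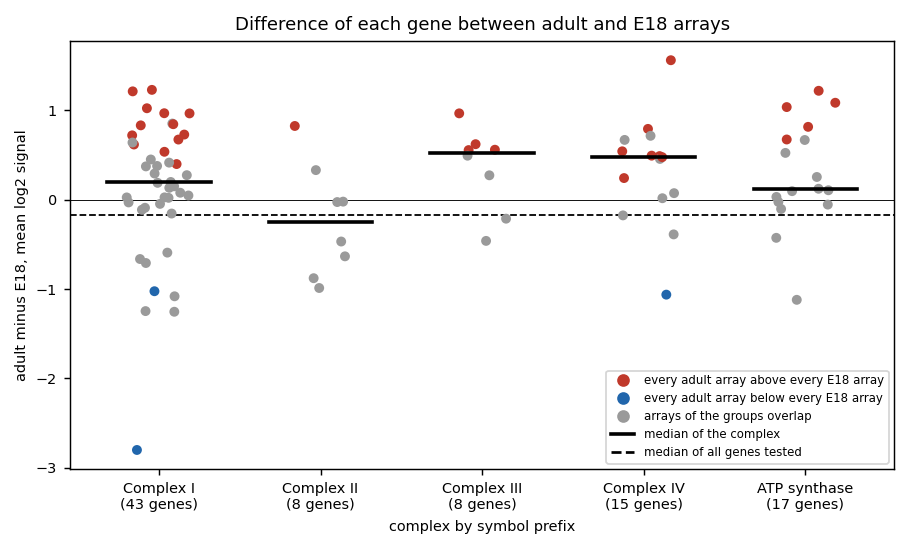
Adult minus E18 difference in mean log2 signal for each tested gene (points), by complex, with the median of each complex (solid bars), that of all genes tested (dashed line, -0.17) and colours for genes whose arrays do not overlap between groups. The medians of complexes III (0.52) and IV (0.48) were the highest and that of complex II (-0.25) lay below 0.

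By complex, the median differences were 0.20 for complex I (43 genes), -0.25 for complex II (8), 0.52 for complex III (8), 0.48 for complex IV (15) and 0.12 for the ATP synthase (17), with 0 genes of any complex passing in limma. After quantile normalization they were 0.18, -0.27, 0.20, 0.04 and 0.04, which moved complex IV the most. With centred arrays they were 0.35, -0.09, 0.68, 0.63 and 0.28. Differences between complexes were not tested, since their genes share the same 6 arrays and are not replicates.

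In complex I, the NADH dehydrogenase through which most electrons enter the chain, accessory subunits had a median difference of 0.37 (29 genes, 22 positive), against 0.25 for the 6 core subunits measured and -0.03 for 8 assembly factors. Quantile normalization changed these medians to 0.16, 0.08 and 0.19, and so reversed the sign for the assembly factors. The 29 include Ndufa4 and Ndufa4l2, described below, which were counted here by their symbols alone. Ndufa7, an accessory subunit of the matrix arm, had the highest difference of the complex, with 9.88, 9.84 and 10.55 in E18 and 10.89, 10.94 and 12.12 in adult (here and below in the order of replicates 1, 2 and 3). All adult arrays lay above all E18 arrays, with the third replicate the highest in each group, and the difference was 1.23 (SE 0.42, 95% interval 0.25 to 2.21, adjusted p = 0.146). With the third replicates as a block Ndufa7 passed, with the same difference (adjusted p = 0.045), in a fit that called 6.73% of all genes. Ndufa2, another matrix-arm subunit, stood at 12.13, 12.08 and 11.99 in E18 and at 14.02, 13.06 and 12.76 in adult. Adult replicate 1 was the highest array by a wide margin here, and the difference was 1.21 with all arrays (SE 0.36, adjusted p = 0.104), 0.84 without that array (adjusted p = 0.075) and 1.47 without adult replicate 3, which passed (adjusted p = 0.026). Ndufb10, a membrane-arm subunit chosen after its values were seen for its narrow spread, stood at 10.18, 10.21 and 10.32 against 11.18, 11.05 and 11.55. Neither group spread over more than the gap between them, and its difference of 1.02 (SE 0.27, adjusted p = 0.077) was 1.07 without adult replicate 1.

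The core subunits of complex I, which carry the flavin and the iron-sulfur clusters, did not move together. Ndufs7, which holds the last cluster before coenzyme Q, stood at 11.69, 11.84 and 11.87 in E18 and 13.21, 12.45 and 12.28 in adult. Its groups did not overlap, and the difference was 0.85 (SE 0.32, adjusted p = 0.177). Ndufs8, which carries a pair of clusters and was chosen after its values were seen, had a difference of 0.83 (SE 0.42, adjusted p = 0.302) and lay close to the E18 arrays in adult replicate 3 (12.16, against 12.09 to 12.14), and it passed without that array (1.23, adjusted p = 0.042). Ndufv1, the flavin-binding subunit that takes electrons from NADH, differed by 0.08 (95% interval -0.49 to 0.65, adjusted p = 0.881), and by -0.07 after quantile normalization. Ndufs1, the largest core subunit encoded in the nucleus, stood at 10.16, 10.03 and 10.42 in E18 and 8.76, 9.78 and 10.09 in adult (difference -0.66, SE 0.40, adjusted p = 0.385). Adult replicate 1 was its lowest array, and the difference was -0.27 without it. Ndufs3 (-0.59) and Ndufv2 (0.42), whose arrays overlap between groups, complete the core subunits that were measured.

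The largest difference of any member was in Ndufa4l2, a paralog of Ndufa4 that is known to be induced in hypoxia and to be expressed in pericytes. Its signals were 8.94, 9.07 and 6.78 in the E18 arrays and 6.28, 4.67 and 5.44 in the adult arrays, of which the last 2 were under the floor. All adult arrays lay below all E18 arrays, but E18 replicate 3 was closer to adult replicate 1 than to the other E18 arrays. The difference was -2.80 (SE 0.73, 95% interval -4.51 to -1.10, adjusted p = 0.072), and it was -2.35 with signals raised to the floor where they were under it. Ndufa4l2 passed without E18 replicate 3 (-3.54, adjusted p = 0.036), a fit in which 3.79% of all genes were called, and also without adult replicate 3 (-2.79, adjusted p = 0.048) and in replicates 1 and 2 alone (-3.53, adjusted p = 0.018), where 20.8% and 22.5% of all genes were called. The summed signal of smooth muscle and pericyte genes was 17512, 19063 and 6489 in E18 and 7213, 5863 and 1671 in adult. Limma called 4 of 10 tested genes lower (Myh11, Tagln, Rgs5 and Abcc9), where it called 4.57% of all genes lower. Of the others 0 were higher and 6 did not pass, and 0 genes of the list were under the floor on all arrays. The pericyte gene Rgs5, chosen with its values known, fell by 3.08 (SE 0.64, adjusted p = 0.034). Its mean was 9.44 in E18, with 8.22 in replicate 3 and over 10 in replicate 2, and 6.36 in adult. The 6 genes of the list that did not pass had differences from -2.52 (Pdgfrb, adjusted p = 0.206) to -0.38 (Kcnj8, adjusted p = 0.878). Kcnj8 stood at 9.50 on adult replicate 2, above every E18 array. Other lists were also lowest in replicate 3 among the E18 arrays. Endothelial genes summed to 20446, 22329 and 6479 in E18 and 2688 to 4237 in adult (3 of 10 called lower, against 4.57% of all genes). Heart muscle genes summed to 4237, 5039 and 979 in E18. The part of any of these cells in the Ndufa4l2 result was not tested. Ndufa4 itself, once counted in complex I and now usually placed in complex IV, stood at 11.31 ± 0.52 in E18 and 11.50 ± 0.44 in adult (mean ± SD, n = 3, difference 0.19, adjusted p = 0.807).

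Among the assembly factors of complex I, Ndufaf1, which helps to build the membrane arm, had the lowest difference. It stood at 9.39, 9.34 and 8.36 in E18 and 7.19, 7.76 and 8.38 in adult, a difference of -1.25 (SE 0.46, adjusted p = 0.166). The third replicates of the groups were nearly equal, so the groups overlapped. Ndufaf6, another assembly factor, chosen after its values were seen, showed the same layout, with 8.54, 8.14 and 7.85 against 6.06, 6.65 and 8.08 (difference -1.25, SE 0.56, adjusted p = 0.252). Both passed as lower without adult replicate 3 and in replicates 1 and 2 alone, the fits with the highest counts of calls over all genes. Ndufa9, an accessory subunit at the junction of the arms also chosen after its values were seen, was below all E18 arrays on all adult arrays by a small gap, with 12.45, 12.38 and 11.65 against 10.30, 11.52 and 11.59 (difference -1.02, SE 0.43, adjusted p = 0.223).

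Complex II, succinate dehydrogenase, is also an enzyme of the tricarboxylic acid cycle. Limma called 0 of its 8 genes, against 5.98% of all genes. At an unadjusted p under 0.05, 1 was higher and 1 lower, where 6.49% and 15.1% of all genes were. All 4 subunits had negative differences on the deposited scale, with a median of -0.67, or -0.28 with probe sets averaged. Sdhb turned to 0.13 with centred arrays and to 0.11 without adult replicate 1. Sdha turned to 0.32 with its probe sets averaged. Sdhd, a membrane anchor of the complex, stood at 11.39, 11.46 and 11.05 in E18 and 9.78, 11.06 and 10.09 in adult. Adult replicates 1 and 3 lay well below the E18 arrays and adult replicate 2 within them, and the difference was -0.99 (SE 0.39, 95% interval -1.89 to -0.09, adjusted p = 0.193). The other probe set of Sdhd, also above the floor, differed by only -0.08. Sdhc, the other anchor, had 11.11, 10.63 and 10.29 against 8.84, 10.25 and 10.30 (difference -0.88, SE 0.46, adjusted p = 0.323). The third replicates were nearly equal, and the difference was -0.40 without adult replicate 1. The flavoprotein Sdha (12.63 ± 0.25 in E18, 12.16 ± 0.26 in adult, difference -0.47, adjusted p = 0.379) and the iron-sulfur subunit Sdhb (12.10 ± 0.24 and 12.07 ± 0.24, difference -0.02, adjusted p = 0.971) had smaller differences. Adult replicate 1 was the lowest of the 6 arrays for all 4 subunits.

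The assembly factors of complex II gave both signs. Sdhaf4, which helps mature the flavoprotein, stood at 8.32, 8.57 and 8.55 in E18 and 9.12, 9.12 and 9.68 in adult (difference 0.83, SE 0.32, adjusted p = 0.185), with no overlap. Sdhaf1, an iron-sulfur assembly factor, differed by 0.33 (adjusted p = 0.634). Sdhaf3, chosen after its values were seen, stood at 7.64, 7.81 and 7.92 against 6.58, 6.55 and 8.34 (difference -0.63, SE 0.54, adjusted p = 0.551), so that adult replicate 3 was its highest array and adult replicates 1 and 2 its lowest.

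**Figure D3:**
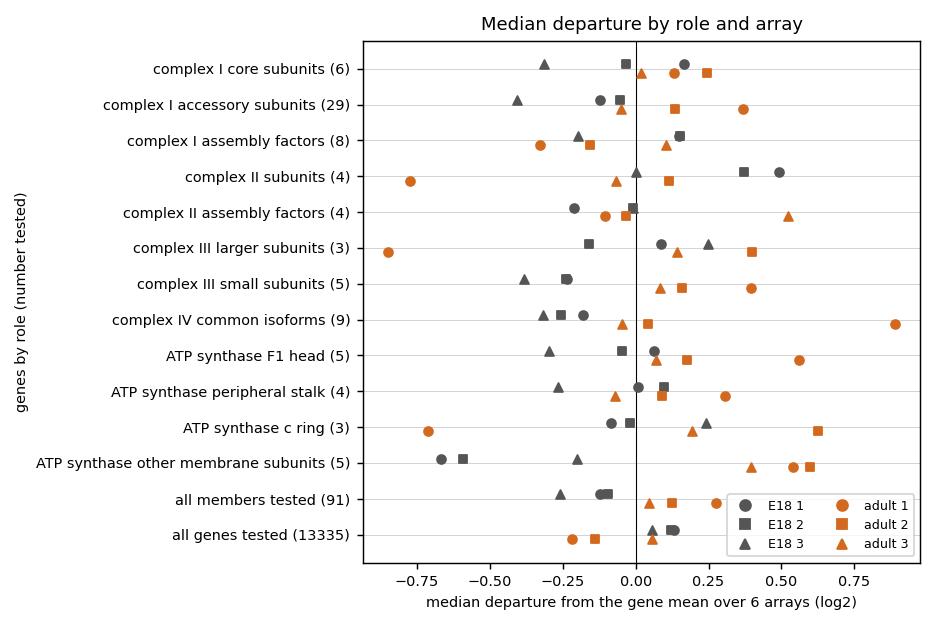
Median departure of each role group from its genes' means on each array (log2), with E18 arrays in grey and adult arrays in orange and 1 marker shape per replicate. The 5 other membrane subunits of the ATP synthase, the 5 small subunits of complex III and the 9 common complex IV isoforms had all 3 adult arrays to the right of all 3 E18 arrays, while adult replicate 1 lay far to the left for complex II subunits (-0.78) and the larger complex III subunits (-0.85).

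In complex III, the cytochrome bc1 complex, all 5 small subunits had positive differences on the deposited scale and the 3 larger subunits had both signs. The 5 small subunits (Uqcr10, Uqcr11, Uqcrb, Uqcrh and Uqcrq) had differences of 0.27 to 0.97 and a median of 0.56. In 4 of them every adult array lay above every E18 array, as in 10.1% of all genes. One of the 4, Uqcrb, had probe sets with differences from -0.57 to 0.56. After quantile normalization the median of the 5 small subunits was 0.41 with 4 of 5 positive. With probe sets averaged it was 0.56, again with 4 of 5 positive. Uqcr10 stood at 9.05, 9.20 and 8.92 in E18 and 9.68, 9.60 and 10.79 in adult (difference 0.97, SE 0.39, adjusted p = 0.206), with adult replicate 3 the highest. Uqcrh, the hinge protein that meets cytochrome c1, stood at 12.01, 12.17 and 12.12 against 12.81, 12.89 and 12.47 (difference 0.62, SE 0.26, adjusted p = 0.213), and every adult array was above the E18 arrays. Uqcrfs1, the Rieske iron-sulfur protein, had 12.06, 11.97 and 12.04 in E18 and 10.55, 12.20 and 11.93 in adult (difference -0.46, adjusted p = 0.598). Its negative sign came from adult replicate 1, without which the difference was 0.04. For the core proteins Uqcrc1 (-0.21, adjusted p = 0.787) and Uqcrc2 (0.49, adjusted p = 0.495) the values without that array were 0.16 and 0.13, and that of Uqcrc2 was -0.19 with probe sets averaged.

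In complex IV, cytochrome c oxidase, the 9 isoforms common to most tissues all had positive differences, from 0.07 to 0.79 with a median of 0.49. After quantile normalization 3 of the 9 turned negative and the median was 0.04. Without adult replicate 1 the median was 0.18 and 2 of the 9 were negative. With probe sets averaged it was 0.29, again with 2 negative. Cox6a1, the common form of a small membrane subunit, had the highest difference of them, with 13.43, 13.44 and 13.55 in E18 and 14.91, 13.94 and 13.96 in adult. All adult arrays were higher, and the difference was 0.79 (SE 0.33, adjusted p = 0.216), or 0.47 without adult replicate 1. Cox4i1, the common form of the subunit 4 that binds ATP, stood at 13.64, 13.63 and 13.49 against 13.85, 13.98 and 13.66. The groups did not overlap, by a very small gap, and the difference of 0.24 (95% interval -0.32 to 0.81, adjusted p = 0.612) was -0.24 after quantile normalization. Cox5a, a matrix-side subunit, was at 13.89, 13.86 and 13.86 in E18 and 15.00, 14.02 and 14.05 in adult (difference 0.49, adjusted p = 0.437, and -0.13 after quantile normalization). Its zinc-binding neighbour Cox5b was at 13.48, 13.43 and 13.31 against 14.81, 13.59 and 13.20 (difference 0.46, adjusted p = 0.585, and -0.06 after quantile normalization). For both genes adult replicate 1 lay far above the other 5 arrays, and without it the differences were 0.17 and -0.02. Cox6b1 (0.67, adjusted p = 0.433), Cox7a2 (0.49, adjusted p = 0.338), Cox8a (0.48, adjusted p = 0.338, and -0.02 with probe sets averaged) and the supercomplex factor Cox7a2l (0.72, adjusted p = 0.441) did not pass either.

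Isoforms of complex IV subunits that belong to certain tissues went in different directions. Cox6a2, the form of heart and skeletal muscle, had the highest difference of all members. It stood at 7.04, 6.43 and 7.36 in E18 and 8.65, 8.12 and 8.75 in adult. Every adult array was clearly above every E18 array, and the difference was 1.56 (SE 0.40, 95% interval 0.63 to 2.49, adjusted p = 0.067), or 2.95-fold. Cox6a2 passed after quantile normalization (1.80, adjusted p = 0.031), with centred arrays (1.72, adjusted p = 0.036), with its 2 probe sets averaged (2.31, adjusted p = 0.016), without adult replicate 3 (1.44, adjusted p = 0.042) and in replicates 1 and 2 alone (1.65, adjusted p = 0.036). The first 3 of these fits called 5.36%, 5.51% and 5.5% of all genes. The summed signal of heart muscle genes was 979 to 5039 in E18 and 945 to 1279 in adult. Every adult array lay above every E18 array in 0 of the 11 tested heart genes (10.1% of all genes) and below in 2 (18.8%). The leukocyte sums given above were higher in all adult arrays than in E18. The part of leukocytes or heart muscle cells in the Cox6a2 result was not tested.

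Cox6b2, the testis form of subunit 6b, had the lowest difference of complex IV, with 7.73, 7.74 and 7.71 in E18 and 6.24, 6.65 and 7.11 in adult. The E18 arrays were nearly equal and all adult arrays were lower, with a difference of -1.06 (SE 0.39, adjusted p = 0.167), and it passed without adult replicate 3 and in replicates 1 and 2 alone. Cox7a1, the muscle form of subunit 7a, stood at 6.30 ± 0.22 and 5.91 ± 0.43 (difference -0.39, adjusted p = 0.671) and was under the floor on 1 adult array. Cox4i2, a form known from lung and induced by low oxygen, stood at 5.76, 5.55 and 6.26 in E18 and 6.74, 5.36 and 4.95 in adult, under the floor on 1 E18 and 2 adult arrays (difference -0.18, adjusted p = 0.896, and 0.17 with signals raised to the floor). Cox8c, a testis form, differed by 0.02 (adjusted p = 0.983). Its other probe set differed by 1.21, and with both averaged the difference was 0.61 (adjusted p = 0.406). Cox7b2 and the muscle form Cox8b were under the floor on all 6 arrays and were not tested.

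**Figure D4:**
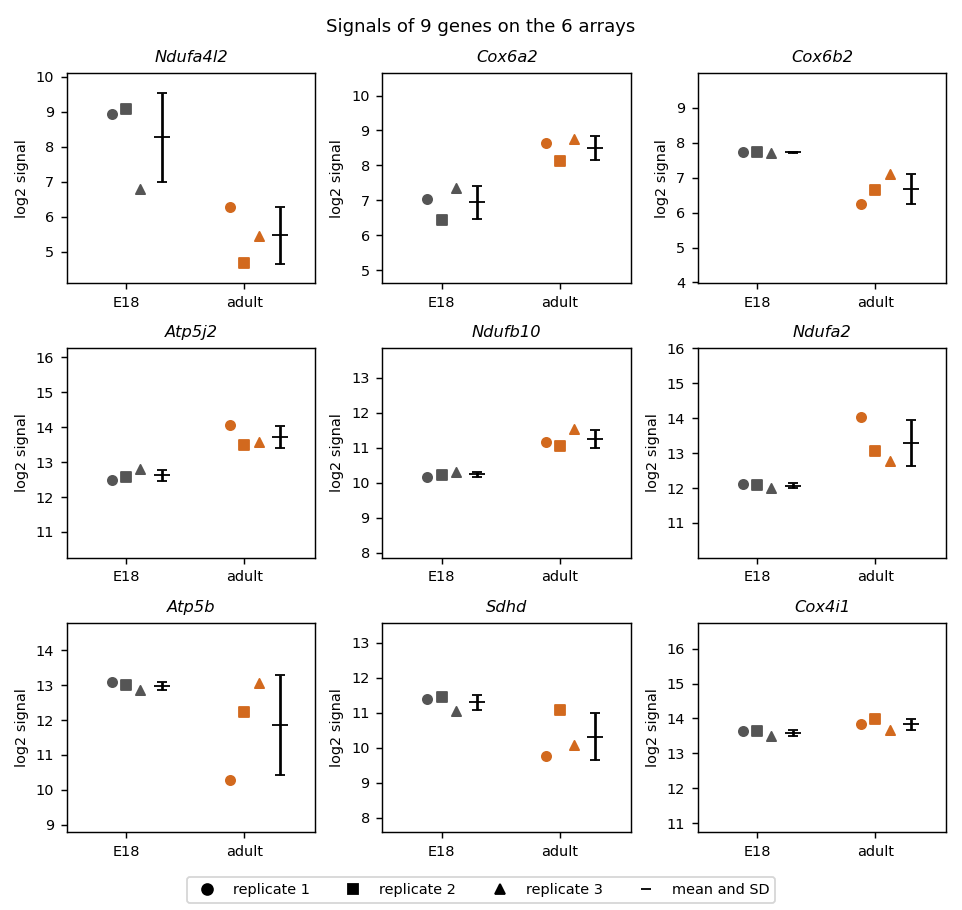
Log2 signal on the 3 E18 arrays (grey) and 3 adult arrays (orange) for 9 genes, each panel spanning its own range of levels, with 1 marker shape per replicate and bars for the mean and SD. Ndufa4l2, Cox6b2 and Sdhd had lower adult means, Cox6a2, Atp5j2, Ndufb10 and Ndufa2 higher ones without overlap, and Atp5b ran from 10.28 to 13.06 among the adult arrays.

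In the ATP synthase, the small membrane subunits outside the c ring had the highest median of the 4 role groups, though their range overlapped with that of the head and the difference was not tested. Atp5j2, Atp5k, Atp5l, Atp5md and Atp5mpl, which help hold the membrane part together or join the enzyme into dimers, had differences of 0.12 to 1.22 with a median of 1.04, all 5 positive on the deposited scale, after quantile normalization (median 0.81) and with centred arrays (1.19). Atp5k, the e subunit, stood at 11.68, 11.29 and 12.45 in E18 and 13.23, 13.02 and 12.83 in adult (difference 1.22, SE 0.35, adjusted p = 0.095), and its promoter is the first sequence printed above. Every adult array was above every E18 array, with E18 replicate 3 the closest. Atp5j2, the f subunit, stood at 12.49, 12.57 and 12.79 against 14.07, 13.49 and 13.56, again with no overlap. Its difference of 1.09 (SE 0.28, 95% interval 0.45 to 1.73, or 2.12-fold) had the lowest adjusted p of the members (0.064), and it was 0.91 without adult replicate 1 (adjusted p = 0.051) and 1.16, which passed, without adult replicate 3 (adjusted p = 0.033). Atp5l, the g subunit, chosen after its values were seen, had 9.55, 9.48 and 10.44 against 10.62, 10.94 and 11.03 (difference 1.04, SE 0.35, adjusted p = 0.142).

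In the head of the ATP synthase differences ran from -1.12 to 0.67 with a median of 0.03 over 5 genes, which became -0.36 after quantile normalization. Atp5b, the catalytic beta subunit, stood at 13.09, 12.99 and 12.86 in E18 and 10.28, 12.24 and 13.06 in adult. The adult arrays were widely spread and overlapped with E18, and the difference was -1.12 (SE 0.65, 95% interval -2.62 to 0.38, adjusted p = 0.363), or -0.33 without adult replicate 1. Atp5d (0.52, adjusted p = 0.502) and Atp5e (0.67, adjusted p = 0.218), the small subunits of the central stalk, were on the positive side, and the groups did not overlap for Atp5e. Both are named to complete the head. Atp5a1, the alpha subunit, differed by 0.03 (95% interval -0.73 to 0.80, adjusted p = 0.965, and -0.46 after quantile normalization), and Atp5c1, the central stalk, by -0.02 (-0.76 to 0.71, adjusted p = 0.970, and 0.13 with centred arrays). Atp5g1, Atp5g2 and Atp5g3 encode the same mature c subunit with different import sequences. Their differences were 0.11, -0.10 and 0.10 (adjusted p = 0.912, 0.944 and 0.862), and that of Atp5g2 ran from -0.58 to 0.71 when single arrays were left out, since adult replicate 1 was at 9.37 and the other adult arrays at 11.67 and 11.94. In the peripheral stalk, which holds the head still, Atp5o differed by -0.43 (adjusted p = 0.649), or 0.11 without adult replicate 1.

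Grouped by promoter match, the 11 tested genes with an NRF1 match had a median difference of -0.02 and the 64 without one a median of 0.35. The 16 genes with an ETS match had a median of 0.59 and the 59 without one a median of 0.26. Differences ran from -1.08 to 1.22 among genes with an NRF1 match and from -1.25 to 1.04 among those with an ETS match, and these are descriptions with no test. Nrf1, which encodes the first factor, differed by 0.16 (adjusted p = 0.828). Gabpa, which encodes the DNA-binding part of the second, stood at 11.17, 11.03 and 10.87 in E18 and 9.90, 10.08 and 10.25 in adult (difference -0.94, SE 0.27, adjusted p = 0.093), and both were chosen for the motifs searched, after their values were seen.

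Related mitochondrial genes, from 11 lists compiled from general knowledge, were compared in the same fit. Limma called 2 of them, both higher in adult, where it called 1.41% of all genes higher and 4.57% lower. Slc25a20, the carrier that brings acylcarnitines into mitochondria for fatty acid oxidation, rose from 10.72, 10.68 and 10.74 in E18 to 12.50, 11.83 and 11.77 in adult (difference 1.32, SE 0.30, adjusted p = 0.0464). Mrpl52, a protein of the mitochondrial ribosome, rose from 10.61, 10.33 and 10.73 to 12.86, 11.60 and 12.11 (difference 1.63, SE 0.37, adjusted p = 0.0478). The groups did not overlap for either gene. Of the fits that leave out 1 array, both passed only in that without adult replicate 3 (adjusted p = 0.019 and 0.031), and without adult replicate 1 the differences were 1.09 (adjusted p = 0.051) and 1.29 (adjusted p = 0.064). Neither passed with probe sets averaged (0.91 and 0.96), with the replicate block (adjusted p = 0.107 and 0.073), with the third replicates as a block (0.053 and 0.062), without the intensity trend (0.068 and 0.065), without the floor (0.056 and 0.055) or with E18 replicates 1 and 2 averaged (0.217 and 0.202).

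Both genes were the sole calls in their lists, 1 of 21 tested carriers and membrane proteins (median 0.04) and 1 of 67 tested ribosomal proteins (median -0.12). Over all genes 1.41% were called higher. In the other 9 lists limma called 0 of 92 tested genes, against 5.98% of all genes. At an unadjusted p under 0.05 there were 6 higher and 7 lower, where 6.49% and 15.1% of all genes were. The tricarboxylic acid cycle, which supplies NADH and succinate to the chain, had a median of -0.49 over 17 genes, with every adult array below every E18 array in 5 and above in 1, where 18.8% and 10.1% of all genes had these patterns. Medians were -0.39 for 8 other complex I assembly factors, -0.28 for 5 complex III assembly factors, 0.08 for 20 complex IV assembly factors, -0.14 for 5 genes of ATP synthase assembly and regulation, -0.05 for 10 genes of coenzyme Q synthesis, 0.01 for 18 regulators of mitochondrial biogenesis and -0.19 for 7 antioxidant enzymes. Cytochrome c (Cycs), the mobile carrier between complexes III and IV, stood at 13.30, 13.07 and 13.35 in E18 and 14.56, 13.94 and 13.77 in adult (difference 0.85, SE 0.30, adjusted p = 0.152), and cytochrome c1 (Cyc1) differed by 0.10 (adjusted p = 0.900). Cycs and Cyc1 were picked as partners of complex III with their values known.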

How the data were processed

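Signals came from 6 Affymetrix 3' expression arrays, 3 of E18 and 3 of adult cells, grouped by the labels with no array left out. The values that the authors deposited were linear intensity per probe set, for which the submitters' processing notes name Affymetrix Expression Console and MAS5. Per the labels' protocols the RNA was amplified in a pair of cDNA synthesis cycles, a method that favours 3' ends. Values were log2 transformed here without a pseudocount or further normalization. Of 45101 probe sets, 34945 had 1 gene symbol in the array's gene table, 932 several and 9160 were not listed, and the probe set with the highest mean stood for each gene. A probe set's level is not comparable with another's, and with 3 arrays per group the precision is low.

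Adult was compared with E18 by limma 3.58.1 under R 4.3.3 (lmFit and eBayes with an intensity trend), with Benjamini-Hochberg adjustment over the 13335 genes tested at a threshold of 0.05. Every adjusted p is from this two-sided test, SE and 95% intervals are its moderated values, and the steps were tested on simulated data. The median residual SD was 0.53. Genes were named by rule, which took members that passed, the 2 highest and 2 lowest differences in each complex, core subunits, isoform genes, passing genes of related lists and the sort genes, and genes outside it are marked as chosen with their values known. The genes, the lists and the tests were chosen with earlier results of these data known. RefSeq promoter windows (GRCm38.p6) were matched by gene ID, and the files' own build is not given in the sources used here. Alternatives covered normalization, the floor, probe set averaging, the variance trend, blocks and leaving out arrays.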

Additional observations from a re-analysis of the deposited data

How the results depend on the processing

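The arrays that entered the fit moved the counts most. Leaving out 1 array gave 66 to 2770 genes called, against 798 with all arrays, and it was 492 with the replicate number as a block, 2996 in replicates 1 and 2 alone and 63 with E18 replicates 1 and 2 averaged as 1 sample. Deviations of same-numbered arrays from their group means had correlations of 0.04, -0.14 and -0.06. Deviations within a group of 3 sum to 0, so these are not separate checks and cannot exclude a pairing. The numbers were not taken as a pairing in the main fit, and with the replicate block 0 members passed. Higher calls among the members numbered 0 to 4 and lower calls 0 to 5 when 1 array was left out. Both counts were highest without adult replicate 3, where 20.8% of all genes were called (701 higher and 2069 lower). Replicates 1 and 2 alone gave 4 higher (Atp5k, Atp5l, Cox6a2 and Ndufa7) and 5 lower (Cox6b2, Ndufa4l2, Ndufaf1, Ndufaf6 and Sdhaf3). In that fit 22.5% of all genes were called (801 higher and 2195 lower). Quantile normalization, centring, probe set averaging and the third replicates as a block gave 1 higher each. These fits called 5.36%, 5.51%, 5.5% and 6.73% of all genes. Members with every adult array above every E18 array numbered 17 with centring (11.1% of all genes) and 30 to 41 without 1 array (11.1% to 18.1% of all genes). Those below numbered 8 after quantile normalization (15.7% of all genes), 6 with averaging (18.01%), 20 in replicates 1 and 2 alone (45.3%) and 3 to 12 without 1 array (19.9% to 35.7%).

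The median over all genes was -0.054 after quantile normalization, -0.021 with centring, -0.32 in replicates 1 and 2 alone and -0.28 to -0.10 without 1 array. That of the members was 0.092 and 0.41 under the first 2 settings and 0.17 to 0.34 without 1 array. For complex III it was 0.20, 0.68, 0.21 with averaging and 0.29 to 0.58 without 1 array, for complex IV 0.037 after quantile normalization and 0.17 to 0.63 without 1 array, for the ATP synthase 0.28 with centring, 0.24 in replicates 1 and 2 alone and 0.13 to 0.29 without 1 array, and for complex I 0.065 to 0.38 without 1 array.

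Some named genes changed sign, with differences of -0.47 to 0.49 on all arrays at the deposited scale. After quantile normalization these were Atp5a1 (-0.46), Atp5g3 (-0.47), Cox4i1 (-0.24), Cox5a (-0.13), Cox5b (-0.062) and Ndufv1 (-0.072). With centring they were Atp5c1 (0.13), Atp5g2 (0.051) and Sdhb (0.13), and with averaging Atp5g1 (-0.051), Atp5g2 (0.17), Cox8a (-0.023), Ndufv1 (-0.11), Sdha (0.32) and Uqcrc2 (-0.19). Cox4i2 was 0.17 with signals raised to the floor and 0.39 in replicates 1 and 2 alone, where Cox8c was -0.0051, and with E18 replicates averaged Cox8c was -0.071 and Sdhb 0.047. Without 1 array the ranges that crossed 0 were Atp5a1 -0.24 to 0.25, Atp5c1 -0.21 to 0.27, Atp5g1 -0.21 to 0.49, Atp5g2 -0.58 to 0.71, Atp5g3 -0.043 to 0.22, Atp5o -0.72 to 0.11, Cox4i2 -0.70 to 0.19, Cox5b -0.015 to 0.79, Cox8c -0.20 to 0.34, Ndufa4 -0.10 to 0.41, Sdhb -0.16 to 0.11, Uqcrc1 -0.46 to 0.16 and Uqcrfs1 -0.78 to 0.044. The cause of these changes was not tested.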

Other observations

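Several probe sets could be compared for 49 of the genes, and in 17 of the 49 they disagreed on the sign of the adult minus E18 difference, among them Atp5a1, Cox5b, Cox8a, Ndufv1, Sdha and Uqcrc2. For Sdha the differences ran from -0.47 to 0.96 and for Cox8a from -0.73 to 0.48. Ndufa12, Ndufb5, Ndufs8 and Uqcrb, which like Cox8a had every adult array above every E18 array, were also among the 17. For Uqcrb the differences ran from -0.57 to 0.56. Cox6a2 had 2 probe sets, with differences of 1.56 and 3.07, and Atp5j2 had 3, from 0.60 to 1.09. Of the probe sets that stood for the members, 7 were of the array maker's class that may cross-hybridize with other genes and 14 of the class that several transcripts share.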
